A study of Mus musculus with 2 samples.

Results

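The enzymes described here are 9 genes of amino acid breakdown, Tat, Hpd, Hgd, Tdo2, Sds, Hal, Uroc1, Kynu and Prodh2, taken by gene symbol from the 32285 genes of a mouse liver single-cell RNA-Seq matrix, in which each symbol stood on 1 row. Their levels were followed in hepatocyte-like cells by sequencing depth, in each of the 2 libraries, and against Glul in single cells. The study compared 1 liver sample labelled Cebp KO with 1 labelled Cebp WT, both from mice fed a 40% HFCFD (a steatohepatitis diet rich in fat, fructose and cholesterol) for 2 weeks. In its hepatocyte-specific knockout strains, floxed Cebpa was deleted by a Cre driven by the albumin promoter, so that other liver cells keep the gene, and the sources used here give neither the ages of these mice nor whether animals were pooled. Both samples lie in 1 joined matrix in which the ending of each cell barcode, suffix 1 or suffix 2, marks the library. No label ties a suffix to a genotype, so the libraries are called by their suffix, no value is read as knockout or wild type, and with 1 library per suffix no test was possible.

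The liver is the main site where surplus amino acids are taken apart. TAT removes the amino group of tyrosine, and HPD and HGD carry the product on towards fumarate and acetoacetate. TDO2 opens the ring of tryptophan and KYNU acts further down the kynurenine pathway, HAL and UROC1 are consecutive steps of histidine breakdown, SDS turns serine into pyruvate, and PRODH2 oxidizes hydroxyproline. Along the liver lobule, hepatocytes near the portal vein are known for amino acid breakdown, urea synthesis and gluconeogenesis, whereas those around the central vein make glutamine through GLUL, glutamine synthetase.

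The members lie apart in the genome. In GENCODE M21 on GRCm38 (the same assembly as mm10, the build in the submitters' processing notes), Hal covers chr10:93488768-93519304 on the plus strand, with 20 exons in its longest transcript, and Hgd covers chr16:37580153-37632020. The span of Hpd, at chr5:123171807-123182727, overlaps 2 other genes, 1 of them (Gm26745) on the same strand, so reads of that pair may not be told apart. CEBPA belongs to the C/EBP factors, and the letters TTGCNNAA or, on the other strand, TTNNGCAA were taken as a form of their sites. These letters were searched in the 250 bases before the start of each gene in the RefSeq promoter table (GRCm38.p6), in which 7 of the 9 members were found. Of those 7, 3 held a match, as did 9.56% of all 32851 promoters in the table. The matches began 150 bases before the start of Hal, 49 before that of Hgd and 244 before that of Prodh2. The windows of Hal and Hgd are shown with the match in capitals, and that of Uroc1, the next enzyme after HAL, is shown beside them without a match (chr10:93488518-93488767, chr16:37579903-37580152 and chr6:90333039-90333288, all plus strand). A match is a description of the letters and not a binding site, and a window without a match may hold a site of other letters. The site upstream of Spp1 through which the paper reports repression by CEBPA does not hold these letters.
Hal: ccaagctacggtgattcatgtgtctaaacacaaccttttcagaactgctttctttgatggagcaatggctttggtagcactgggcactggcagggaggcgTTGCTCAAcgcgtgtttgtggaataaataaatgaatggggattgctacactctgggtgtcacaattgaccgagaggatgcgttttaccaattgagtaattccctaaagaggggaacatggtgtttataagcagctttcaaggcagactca
Hgd: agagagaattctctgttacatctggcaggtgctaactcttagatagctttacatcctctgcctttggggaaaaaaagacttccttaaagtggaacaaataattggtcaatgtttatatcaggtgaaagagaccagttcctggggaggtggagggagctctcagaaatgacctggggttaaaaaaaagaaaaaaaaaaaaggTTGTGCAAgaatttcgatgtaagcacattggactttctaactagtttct
Uroc1: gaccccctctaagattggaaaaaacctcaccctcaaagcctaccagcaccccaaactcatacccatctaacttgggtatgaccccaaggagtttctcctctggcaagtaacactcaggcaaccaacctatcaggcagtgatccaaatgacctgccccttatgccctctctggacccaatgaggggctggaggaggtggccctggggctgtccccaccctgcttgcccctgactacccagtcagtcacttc

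The libraries differed in quality. The library with suffix 1 had 17313 barcodes and the library with suffix 2 had 15003, with a median mitochondrial share of UMIs (unique molecular identifiers, 1 per counted molecule) of 4.07% and 41.3%. After filtering, 7957 and 3710 hepatocyte-like cells remained, most of them shallow, with median depths of 1200 and 1377 UMIs. Deep cells, with at least 5000 UMIs, numbered 647 and 516 and held medians of 23066 and 13272 UMIs. The median mitochondrial shares of the deep cells were 15.7% and 15.6%. All 10 hepatocyte markers were detected in them, with summed levels of 82084 and 99690 CPM (UMIs of a gene per 1000000 UMIs). The same markers had named the clusters, so their detection there was given in advance. In B-like cells, named by markers of B cells, they summed to 27824 and 33741 CPM. The deep cells of the libraries fell into different clusters. In the library with suffix 1, 490 were in cluster 9 and 140 in cluster 2, while with suffix 2, 353 were in cluster 13, 110 in cluster 5 and 47 in cluster 1. A UMI of at least 1 of 7 marker genes of other cell types was found in 36.5% and 33.5% of the deep cells. The libraries shared 81 barcode sequences, none of them among the deep cells. Cebpa itself was at 1.32 CPM (95% interval 0.793 to 2.06) in the deep cells with suffix 1 and at 110 CPM (103 to 118) in those with suffix 2.

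In deep hepatocyte-like cells, 1 member, Hal, was at least 2-fold apart between the libraries, and Uroc1, the next step of the same histidine pathway, was at nearly the same level in both. With suffix 1, Hal stood at 210 CPM (95% interval 203 to 218). With suffix 2 it stood at 495 CPM (480 to 511), which gave a ratio of 2.36 (2.25 to 2.47). Uroc1 was at 294 and 319 CPM, a ratio of 1.09 (1.04 to 1.14). By the rule of a 2-fold ratio and intervals that do not overlap, 5.25% of 2326 genes at 50 CPM or more were apart (2.15% higher with suffix 2 and 3.1% higher with suffix 1), against the 1 of 9 members. All intervals are exact Poisson or conditional binomial ones and cover counting error only, so they leave out the spread between animals and preparations.

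The enzymes of tyrosine breakdown differed from each other in this comparison. Tat, the aminotransferase at the head of the pathway, was at 677 CPM with suffix 1 and 750 CPM with suffix 2, a ratio of 1.11 (1.07 to 1.14). Hpd, the dioxygenase that acts next, was at 638 and 1238 CPM, a ratio of 1.94 (1.88 to 2.00). Hgd, which cleaves the ring of homogentisate, was at 208 and 362 CPM, a ratio of 1.74 (1.65 to 1.83). With a mitochondrial limit of 10% in place of 25%, these ratios were 0.982 for Tat, 1.07 for Hpd and 1.23 for Hgd, so they lay closer together.

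Of the tryptophan enzymes, Tdo2 was at 1003 and 1808 CPM, a ratio of 1.80 (1.76 to 1.85), and Kynu at 133 and 214 CPM, a ratio of 1.61 (1.51 to 1.72). Both intervals lie above equality. Sds, the serine dehydratase, was at 525 and 656 CPM, a ratio of 1.25 (1.21 to 1.29). Prodh2 was the single member whose ratio interval included equality, with 134 and 126 CPM and a ratio of 0.939 (0.869 to 1.01). In all, 5 of the 9 members were at least 1.5-fold higher with suffix 2, where 5.33% of the 2326 genes were. The median ratio of the 9 members was 1.61, against 0.998 over all those genes. With the limit of 10%, 1 member (Hal) reached 1.5-fold and the median was 1.07. Levels are compared here for 1 gene between cells, never between genes.

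**Figure D1:**
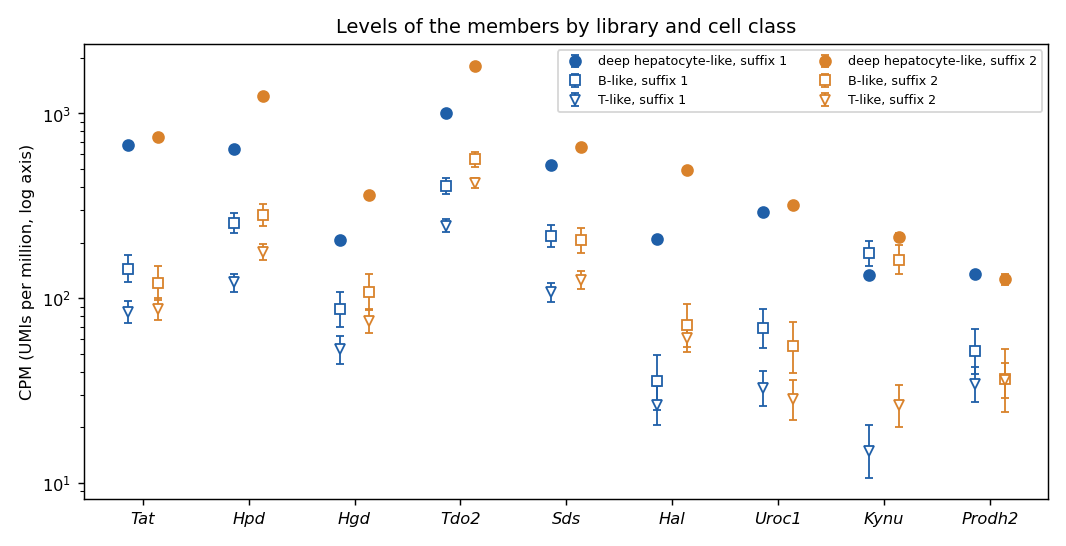
CPM of the 9 members (log axis) in deep hepatocyte-like cells (filled circles), B-like cells (squares) and T-like cells (triangles) of each library, with exact Poisson 95% intervals. Hal stands at 210 CPM in deep cells with suffix 1 and 495 CPM with suffix 2, and the B-like level of Kynu is above the deep hepatocyte-like level with suffix 1 (175 and 133 CPM) and below it with suffix 2 (162 and 214 CPM).

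Among cells in the same depth bin, the ratio of suffix 2 to suffix 1 varied less for Hal than for Hpd. For Hal it lay between 1.95 and 2.40 over the 6 bins and passed 2 in 3 of them. For Hpd it lay between 1.06 and 2.17, with intervals above equality in every bin. It was 1.10 (1.02 to 1.18) in cells from 5000 to below 10000 UMIs, 1.65 (1.54 to 1.75) from 10000 to below 20000 and 2.17 (2.09 to 2.26) from 20000. Tdo2 and Hgd had ratios of 1.19 and 1.15 in the bin from 5000 and 1.80 and 1.80 in the bin from 20000. Sds was lower with suffix 2 in the bin from 5000, at 0.813 (0.748 to 0.884), and higher in the bin from 10000, at 1.51 (1.39 to 1.64). Cells of the bin from 5000 were unlike between the libraries in other ways, with median mitochondrial shares of 0.793% and 9.49% and Alb at 18812 and 36746 CPM. The members named here for their depth ratios were described after their values were seen.

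The clusters of the deep cells moved with these values. In the library with suffix 1, cluster 2 (median 6150 UMIs) held Hpd at 1374 CPM, Tdo2 at 2169 CPM and Sds at 1301 CPM. In cluster 9 of the same library (median 27680 UMIs) the levels were 575, 911 and 468 CPM. Hal was at 195 CPM in cluster 2 and 212 CPM in cluster 9. With suffix 2, Hal was at 318, 372 and 526 CPM in clusters 1, 5 and 13, and Hpd was at 1054, 1531 and 1189 CPM, so both varied over the clusters of that library. At the mitochondrial limit of 10%, the ratio between the libraries was 1.07 for Tdo2 and 2.16 for Hal. The part of depth and cluster in the differences of the members was not tested.

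The other listed genes of amino acid catabolism went both ways between the libraries. Of 51 further genes of the listed pathways, 49 reached 10 CPM, with a median ratio of 0.975, and 4 were at least 2-fold apart, where 5.25% of all genes at 50 CPM or more were. Got1, the cytosolic aspartate aminotransferase, was at 55.1 CPM with suffix 1 and 378 CPM with suffix 2, a ratio of 6.86. Gldc, the decarboxylase of the glycine cleavage system, was at 87.6 and 206 CPM, a ratio of 2.35. Both were higher with suffix 2, as Hal was. In the other direction, Aadat, an aminotransferase of kynurenine and aminoadipate, was at 167 and 81.2 CPM, and Csad, a decarboxylase of taurine synthesis, was at 91.9 and 33.7 CPM. Gstz1 and Fah, whose enzymes follow HGD in tyrosine breakdown, had ratios of 1.22 and 1.04, below those of Hpd and Hgd. Among the 9 listed tryptophan genes the median ratio was 0.863, from 0.487 for Aadat to 1.80 for Tdo2.

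Tat, Hal, Uroc1 and Kynu were higher in deep than in shallow hepatocyte-like cells of both libraries, and Tdo2 and Sds were lower, with intervals apart. The deep-over-shallow ratio was 0.581 and 0.818 for Tdo2 and 0.683 and 0.878 for Sds. Hgd (0.630 and 0.956) and Prodh2 (0.937 and 0.818) were also below 1 in both, each with overlapping intervals in 1 library, and Hpd, at 0.637 and 1.10, went opposite ways. Mitochondrial UMIs count in the total behind each CPM and had a larger share in deep cells. Their part in these ratios was not tested. From cells with 500 to below 1000 UMIs to cells with at least 20000, Tat went from 360 to 646 CPM with suffix 1 and from 306 to 738 CPM with suffix 2, with its highest level (826 and 795 CPM) in the bin from 10000. Uroc1 went from 141 to 286 CPM and from 147 to 319 CPM. Kynu went from 64.0 to 134 CPM and from 99.3 to 232 CPM, so that its most shallow and deepest cells differed by 2.10-fold and 2.33-fold. Hal, finally, went from 126 to 210 CPM and from 248 to 504 CPM.

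Hpd, Hgd, Tdo2 and Sds had their highest levels at intermediate depth. With suffix 1, Sds went from 520 CPM in the most shallow bin to 1050 CPM in the bin from 5000 and stood at 460 CPM in the bin from 10000. With suffix 2 it went from 480 to 918 CPM in the bin from 2000 and stood at 563 CPM in the deepest cells. Both libraries thus had the Sds peak in the middle, with a steeper drop in suffix 1. Tdo2 stood at 1460, 1917 and 883 CPM with suffix 1 in the bins from 500, 5000 and 20000, and at 2142, 2289 and 1586 CPM with suffix 2. Hpd ended at 569 CPM with suffix 1 and 1236 CPM with suffix 2 after nearly equal levels of 1223 and 1344 CPM in the bin from 5000. Prodh2 was at 161 and 181 CPM in the most shallow and at 137 and 132 CPM in the deepest bin.

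**Figure D2:**
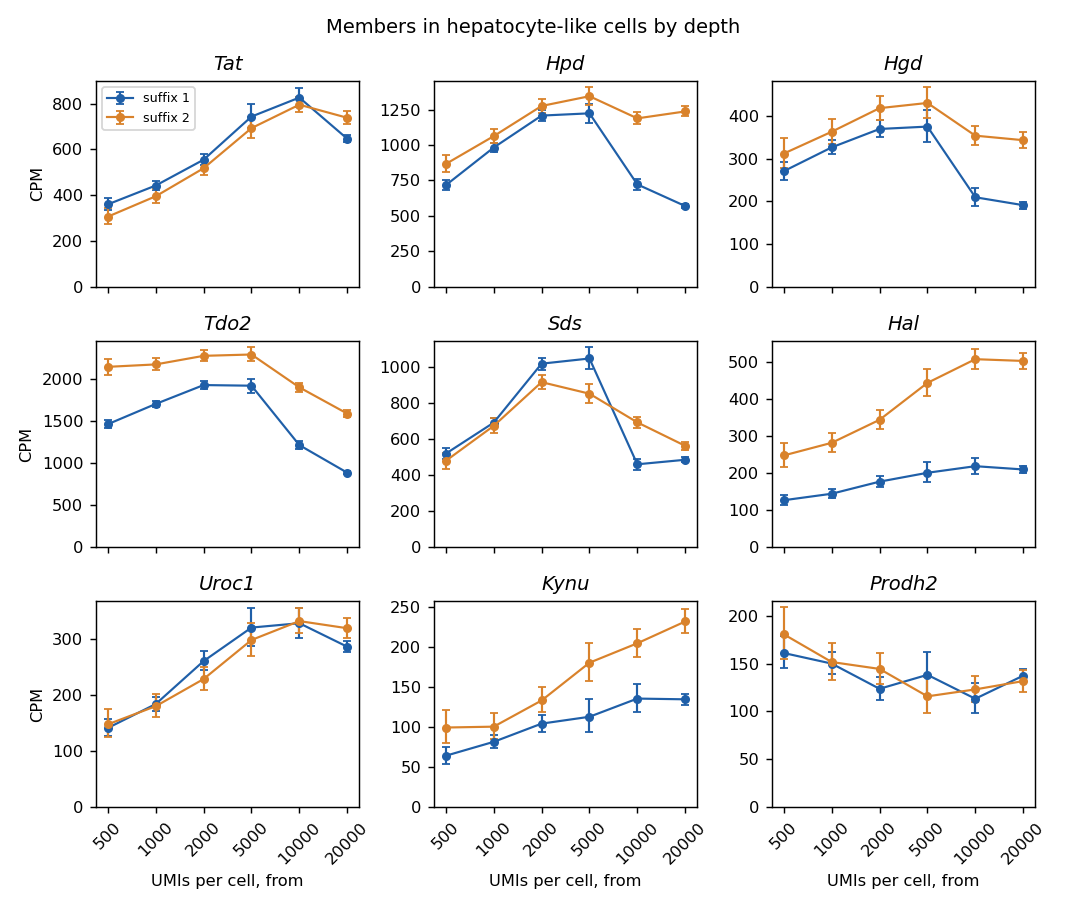
CPM of each member in hepatocyte-like cells in 6 bins of UMIs per cell (500 to 20000 and above, evenly spaced on the axis) for each library, with exact Poisson 95% intervals. Hal is higher with suffix 2 in every bin, whereas the ratios of Hpd and Hgd grow at 10000 UMIs, from 1.10 and 1.15 in the bin before to 1.65 and 1.69.

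Deep over shallow (under 5000 UMIs), 1 member (Kynu, 1.56) was at least 1.5-fold higher with suffix 1, where 23.2% of genes were, and 4 (Tat, Hal, Uroc1 and Kynu, 1.63 to 1.86) with suffix 2, where 18.7% were. Shallow over deep, 3 members (Hpd, Hgd and Tdo2) passed that limit with suffix 1, where 30% of genes did, and 0 with suffix 2, where 10.6% did. The pericentral genes moved far more: the deep-over-shallow ratio was 0.233 and 0.275 for Glul, and 0.270 and 0.222 for Cyp2e1, a cytochrome P450 of the pericentral zone. Cyp2f2, a cytochrome P450 of the periportal zone, was at 1.86 and 1.41. The median mitochondrial share went from 1.93% and 3.80% in the most shallow bin to 17.2% and 16.7% in the deepest.

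In the most shallow hepatocyte-like droplets few molecules stood behind each level. Per droplet of 500 to below 1000 UMIs there were 0.294 and 0.225 UMIs of Tat in the libraries with suffix 1 and 2, against 0.419 and 0.399 per T-like cell, a cell type that should lack the enzyme. In CPM the same droplets were at 360 and 306 for Tat and the T-like cells at 84.6 and 87.7. The T-like cells were deeper, with medians of 4611 and 4215 UMIs against 831 and 718, and 96.1% of 1951 genes at 50 CPM or more in deep cells were lower per droplet than per T-like cell in both libraries. The part of free RNA, shed into the droplets by other cells, in the levels of these droplets was not tested.

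In Glul-rich cells of at least 1000 UMIs, Hal and Uroc1 of histidine breakdown and Sds of serine breakdown were low, and Hpd and Hgd of tyrosine breakdown were not. Deep cells held too few Glul-rich ones: after each was thinned to 5000 UMIs, 4 and 1 cells had 5 or more Glul UMIs, against 514 and 476 with none. In them, 1 member (Uroc1) was at 0.5 or less of the Glul-free level in both libraries and 0 were at 2 or more, where 2.32% and 4.89% of 1943 genes were. Uroc1 had 1 UMI in each group of Glul-rich cells, with ratios of 0.106 (0.00269 to 0.593) and 0.327 (0.00827 to 1.82), so this depth does not place it with suffix 2. Hpd and Tdo2 went opposite ways in these few cells, at 3.66 (2.87 to 4.60) and 2.45 (1.93 to 3.06) with suffix 1 and at 0.424 (0.138 to 0.989) and 0.521 (0.238 to 0.990) in the 1 cell with suffix 2. Hgd was at 1.36 (0.621 to 2.58) and 0.292 (0.00740 to 1.63). With suffix 1 the Glul-rich deep cells, 2 of them in cluster 2, had a median of 6404 UMIs against 24346 in the Glul-free ones. Their median mitochondrial share was 0.613% against 15.9%, and the part of these differences in the ratios was not tested. The comparison was therefore also made in cells with at least 1000 UMIs, thinned to 1000, a choice made after the data were seen. It set 132 and 14 cells with 3 or more Glul UMIs against 4569 and 2308 with none, and 121 and 8 of the Glul-rich cells lay in cluster 3. Oat, an aminotransferase known to lie with Glul, was 119-fold and 128-fold higher in the Glul-rich cells, and Cyp2e1 was 2.59-fold and 4.69-fold higher.

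Uroc1, Hal and Sds were low in the Glul-rich cells of both libraries. Uroc1 was at 33.8 CPM in the Glul-rich and 270 CPM in the Glul-free cells with suffix 1, a ratio of 0.125 (0.0539 to 0.246), and at 30.6 and 284 CPM with suffix 2, a ratio of 0.108 (0.00272 to 0.600). T-like cells, which should lack Uroc1, held 32.7 and 28.4 CPM of it. Hal was at 38.0 against 195 CPM, a ratio of 0.195 (0.0890 to 0.370), and at 122 against 442 CPM, a ratio of 0.277 (0.0755 to 0.710). Sds was at 241 against 643 CPM, a ratio of 0.374 (0.283 to 0.485), and at 214 against 711 CPM, a ratio of 0.301 (0.121 to 0.621). These 3 members were at 0.5 or less in both libraries, where 3.25% of 1938 genes were.

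Tat lay close to that limit, at 0.518 (0.408 to 0.649) with suffix 1 and 0.324 (0.130 to 0.668) with suffix 2. Its Glul-rich levels were 321 and 214 CPM, the latter from 7 UMIs. Hpd was at 1296 against 780 CPM, a ratio of 1.66 (1.48 to 1.86), and at 1590 against 1219 CPM, a ratio of 1.30 (0.974 to 1.71). Hgd had ratios of 1.72 (1.41 to 2.09) and 1.31 (0.75 to 2.14). Tdo2 had ratios of 1.25 (1.13 to 1.39) and 0.977 (0.749 to 1.25). Thus no member was 2-fold higher in both libraries, where 3.3% of genes were, and Hpd and Hgd were higher in the Glul-rich cells with suffix 1, with intervals that include equality with suffix 2.

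Prodh2 was at 0.870 (0.577 to 1.26) and 0.460 (0.0556 to 1.66), intervals too wide to place it. Kynu was at 0.743 (0.459 to 1.14) with suffix 1, and with suffix 2 the 14 Glul-rich cells held 0 Kynu UMIs, which allows a ratio of up to 0.497 at a limit of 3 UMIs over the group, or of 0.612 by the exact interval used for the other members. Of the 49 further pathway genes, 4 were at 0.5 or less in both libraries (Amdhd1, Gldc, Gls2 and Acadsb) and 2 were at 2 or more (Prodh and Hibch); these were named after their values were seen. With suffix 2, Gldc, Gls2 and Acadsb each rest on 1 UMI in the Glul-rich cells, and the interval of Acadsb reaches 1.88. Amdhd1, the histidine enzyme that follows UROC1, was at 0.260 (0.142 to 0.437) and 0.260 (0.0315 to 0.940) of its Glul-free level, the latter from 2 UMIs. Ftcd, the last listed histidine gene, was at 0.606 (0.436 to 0.820) and 0.461 (0.126 to 1.18). Median depths before thinning were 1481 and 1726 UMIs in the Glul-rich and 1642 and 2143 UMIs in the Glul-free cells. Across single cells, Spearman's rho of a member with Glul stayed between -0.118 and 0.0585 in thinned deep cells, and in sparse counts such values are no finding.

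**Figure D3:**
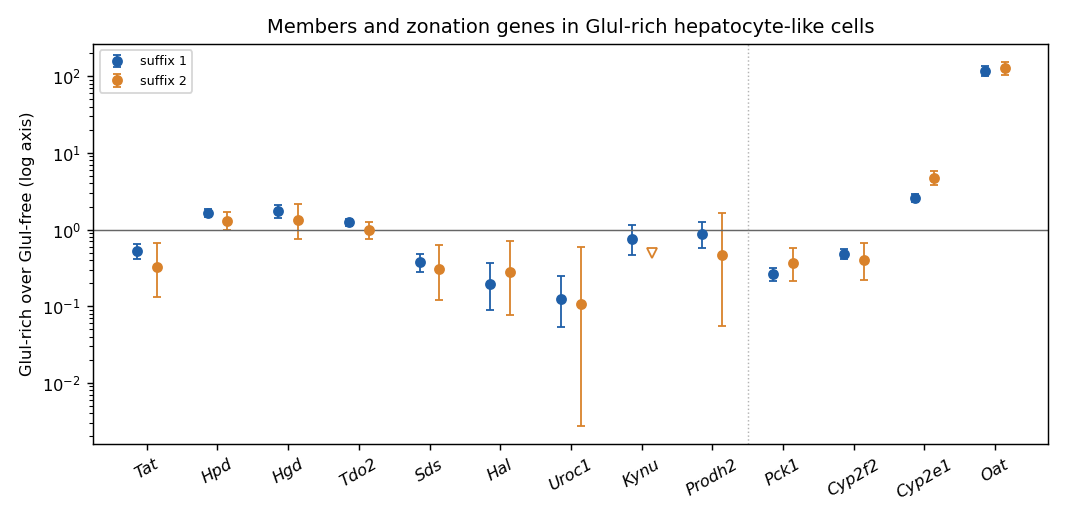
Ratio of Glul-rich to Glul-free hepatocyte-like cells (log axis) for the 9 members and, right of the dotted line, for 4 zonation genes, in each library, with exact conditional 95% intervals, in cells thinned to 1000 UMIs. The open triangle is the upper limit for Kynu with suffix 2, where no UMI was counted; Uroc1, Hal and Sds lie below 0.5 in both libraries.

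Deep cells were also ordered by a zonation score from 22 zonation genes, none of them a member, and cut into 5 bins from the periportal to the pericentral side. Hal was lower in each bin than in the one before in both libraries, going from 251 to 136 CPM with suffix 1 and from 629 to 338 CPM with suffix 2, ratios of 0.541 and 0.537. Tat went from 733 to 622 CPM and from 847 to 669 CPM. Uroc1 went from 371 to 262 CPM with suffix 2, falling at each step, and from 313 to 293 CPM with suffix 1, with no order. Hal is thus the member with the clearest slope over these bins, and its end bins differ by less than its libraries do.

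Sds and Prodh2 were lower at the pericentral end in both libraries, with ratios of 0.803 and 0.836 for Sds and of 0.784 and 0.679 for Prodh2, but without an order over the bins. Hpd, Tdo2 and Kynu differed between the libraries. Hpd ended at 803 CPM from 623 CPM with suffix 1 and at 1190 CPM from 1376 CPM with suffix 2. Tdo2 ended at 1228 CPM from 1005 CPM and at 1874 CPM from 1905 CPM. Kynu was flat with suffix 1 (130 and 146 CPM) and lower at the pericentral end with suffix 2 (265 and 179 CPM). Depth moved along the bins too, with medians of 26462 and 16652 UMIs in the periportal end bin and 9147 and 10628 in the pericentral one, and its part in these slopes was not tested.

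**Figure D4:**
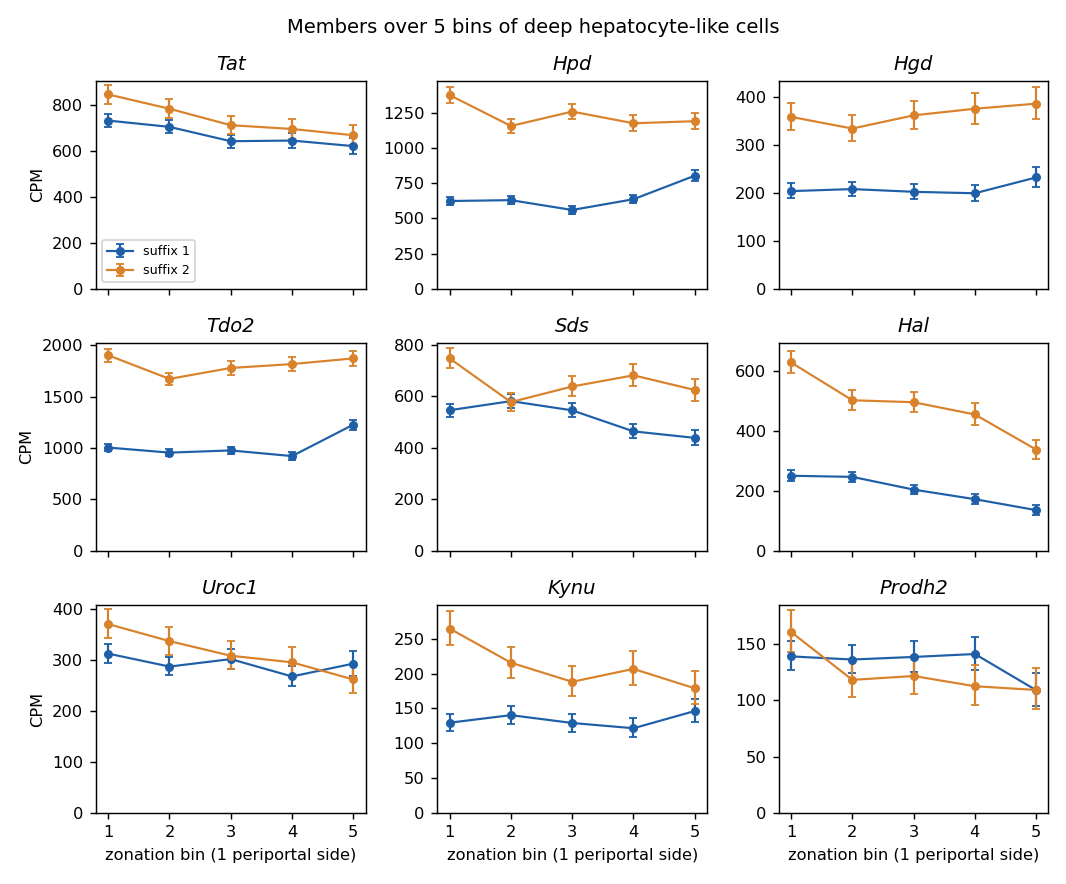
CPM of each member in 5 bins of deep hepatocyte-like cells ordered by zonation score (bin 1 on the periportal side, bin 5 on the pericentral side), with exact Poisson 95% intervals. Hal goes from 251 to 136 CPM with suffix 1 and from 629 to 338 CPM with suffix 2.

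Over these bins, 5 in each of 2 libraries and centred within the library, 2137 genes were ranked by how closely they followed each member. The points share cells and depth, so Pearson's r is a description over 10 points. Nearest to Hal were Gm43305 (0.982), Hpx, the haem-binding plasma protein hemopexin (0.980), and Dnajc3 (0.978). Nearest to Tat were Fam214a (0.979), Dpyd, the dehydrogenase of pyrimidine breakdown (0.976), and Ganab (0.970). Stat3 (0.967) led for Uroc1, Tsc22d3 (0.955) for Hpd, Hnrnpa2b1 (0.944) for Hgd, Rbm39 (0.921) for Tdo2, Zfp148 (0.928) for Sds, Wwox (0.901) for Kynu and Itgb1 (0.952) for Prodh2.

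From cell to cell, the spread was widest for Sds. In deep cells thinned to 5000 UMIs, its variance over its mean was 3.53 with suffix 1 and 3.0 with suffix 2, where counting alone gives 1. A Sds UMI was found in 83.2% and 87.0% of these cells, and the level of a cell ran from 115 CPM at the 10th percentile to 1440 CPM at the 90th with suffix 1 and from 102 to 1520 CPM with suffix 2. Tdo2 had ratios of variance to mean of 3.28 and 2.39, and Hpd of 2.13 and 1.92. Kynu (1.10 and 1.26) and Prodh2 (1.08 and 1.16) had lower ratios, but this ratio nears 1 for any gene with few UMIs, and their means were at most 0.990 UMIs per thinned cell. Divided by the mean, the excess of the ratio over 1 was 0.151 and 0.259 for Kynu, against 0.373 and 0.144 for Tdo2 and 0.807 and 0.536 for Sds.

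Over all deep cells, Hpd, Hgd, Tdo2 and Sds varied together. Over 647 and 516 thinned deep cells, Spearman's rho was 0.422 and 0.256 for Hpd with Tdo2, 0.212 and 0.367 for Hpd with Sds, and 0.249 and 0.235 for Hpd with Hgd. The lowest of the 6 pairs among these 4 genes was at 0.160 with suffix 1 and 0.194 with suffix 2, while the median of the 36 pairs was 0.0363 and 0.0196. The 4 genes were grouped after these values were seen. Tat and Sds ran in opposite directions, at -0.107 and -0.269. Within the largest deep cluster of each library (490 cells of cluster 9 and 353 of cluster 13), Hpd with Tdo2 was at 0.232 and 0.167, Hpd with Sds at 0.0938 and 0.406, and Tat with Sds at -0.0883 and -0.157. The other 4 pairs of the group were near 0 in cluster 9, from 0.00157 for Tdo2 with Sds to 0.0669 for Hgd with Sds, and between 0.118 and 0.190 in cluster 13. The highest of all 36 pairs in cluster 9 was Tat with Tdo2, at 0.261, against 0.0639 in cluster 13, and Tat with Hpd was at 0.196 and -0.0299. Cells of a library share depth and preparation, and these values describe them without a test.

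In cells of other types most members were lower. In deep hepatocyte-like cells, 8 of 9 members were above B-like cells in both libraries, where 54% of 1951 genes were, and 9 of 9 were above T-like cells, where 60.2% were. The 9 members together made up 3821 and 5968 CPM in deep hepatocyte-like cells, 1441 and 1609 CPM in B-like cells, and 721 and 1036 CPM in T-like cells. Tdo2, for example, was found in 60.6% and 76.7% of T-like cells. T-like cells should lack this enzyme, so a share of cells with a UMI does not mark expression here.

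Kynu was the exception, through the library with suffix 1. In 219 B-like cells with suffix 1 it stood at 175 CPM (150 to 203), in 186 with suffix 2 at 162 CPM (135 to 193), and it was at 300 CPM (269 to 333) in 147 and 307 CPM (272 to 347) in 120 plasmacytoid dendritic-like cells. In T-like cells it was at 15 CPM (10.6 to 20.5) and 26.3 CPM (20.1 to 33.7), and in Kupffer or macrophage-like cells at 19.9 and 25 CPM. The plasmacytoid dendritic-like cells thus held more Kynu relative to all UMIs than deep hepatocyte-like cells, at 133 and 214 CPM, in both libraries. After thinning to 1000 UMIs, a Kynu UMI was in 15.6% (11.0 to 21.1) and 16.2% (11.2 to 22.3) of B-like cells, in 23.1% (16.6 to 30.8) and 25% (17.5 to 33.7) of plasmacytoid dendritic-like cells, and in 1.37% and 1.56% of T-like cells. Before thinning the shares were 41.6% and 39.2%, 81.6% and 73.3%, and 7.02% and 9.44%, at median depths of 3725 and 3206, 7229 and 6702, and 4611 and 4215 UMIs.

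Relative to Alb, Kynu also differed between the classes. Per 1000 UMIs of Alb there were 1.44 and 2.01 Kynu UMIs in T-like cells, 14.5 and 11.9 in B-like cells and 36.4 and 32.1 in plasmacytoid dendritic-like cells. In B-like cells with a low Alb share (164 and 157 cells), Kynu stood at 182 and 161 CPM. The part of free RNA in these levels was not tested.

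The highest Kynu level was in cluster 17, an unnamed cluster of 77 and 139 cells led by Gm20528, Egfros and Gm15622. Of 10 hepatocyte markers, 3 were at least 2-fold above the lower quartile of the clusters there. Kynu stood there at 934 CPM (851 to 1024) in the library with suffix 1 and at 1206 CPM (1125 to 1290) in the other, with a UMI in 94.8% and 96.4% of its cells. Hal was at 431 CPM (375 to 494) and 1001 CPM (927 to 1078) there, above its level in deep hepatocyte-like cells of the same library. Prodh2, at 305 and 276 CPM, was also above its 134 and 126 CPM in deep cells, as was Hgd, at 293 and 430 CPM against 208 and 362 CPM. Hpd was at 688 CPM (617 to 765) against 638 CPM (625 to 651) with suffix 1, where the intervals overlap, and at 2080 against 1238 CPM with suffix 2. Tat, at 511 and 598 CPM, was below its level in deep cells of both libraries. Uroc1 was at 267 CPM (223 to 316) with suffix 1, where the intervals overlap, and below its deep level with suffix 2, at 248 CPM. Tdo2 was below its deep level with suffix 1, at 686 CPM, and its intervals overlap with suffix 2. Sds was below its deep level with suffix 2, at 498 CPM, and its intervals overlap with suffix 1. Alb in this cluster was at 13296 and 15888 CPM, against 37349 and 41668 CPM in deep hepatocyte-like cells. Cluster 17 is not part of the hepatocyte-like cells, and what its cells are was not settled by the markers.

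**Figure D5:**
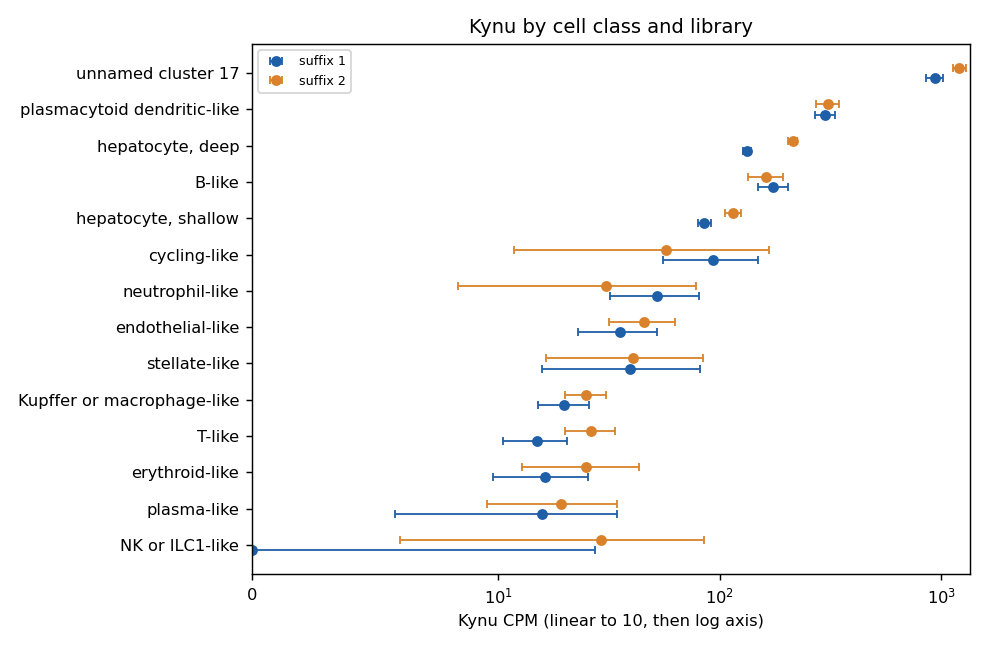
Kynu in CPM (linear to 10, log axis above) by cell class and library, with exact Poisson 95% intervals; classes under 20 cells in a library are left out. Cluster 17 and the plasmacytoid dendritic-like cells lie above deep hepatocyte-like cells, and Kupffer or macrophage-like cells lie at 19.9 and 25 CPM.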

How the data were processed

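Liver cells were released by perfusion and digestion, purified on Percoll, and captured with 10x Genomics 3' v3.1 chemistry on 1 lane per sample. The authors deposited raw UMI counts of each gene in each barcode, from Cell Ranger 7.1.0, as 1 matrix. The submitters' processing notes also name STAR 2.7.2a, bcl2fastq 2.20.0 and mm10. The sources used here do not give whether intronic reads were counted.

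Cells were kept with at least 500 UMIs, 200 genes and at most 25% mitochondrial UMIs. Scrublet marked 0 cells as doublets and was judged to have failed, so doublets were kept. Cells were clustered (scanpy 1.11.5, 2000 variable genes, 30 principal components, 15 neighbours, Leiden resolution 1) with the members, the listed pathway genes, the zonation genes, Glul and Cebpa left out. Of 31 clusters, 8 were hepatocyte-like and 7 stayed unnamed. UMIs were summed per class and library as CPM, with exact Poisson 95% intervals, and shares carry exact binomial (Clopper-Pearson) intervals. A count of 0 was read as up to 3 UMIs. UMIs were thinned at random where depths differed.

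The members, the lists and the rules were chosen with earlier results of these data known. The genes named are the 9 members, Glul, Cebpa, the pathway genes apart between the libraries, and, for each member with at least 20 UMIs in every zonation bin, the 3 genes of at least 50 CPM nearest by Pearson's r of log2(CPM + 10); others were named after their values were seen. Counts for 32285 genes were simulated with Poisson error only. They used the gene shares of the whole matrix and the UMI totals of the deep hepatocyte-like cells of both libraries. Among them, 97 of 97 genes changed 3-fold, 0 of 103 changed 1.5-fold and 0 of 1806 left as they were passed the 2-fold rule. The ratio intervals held the true ratio in 95.2% of cases. Without spread between cells or animals, these shares check the arithmetic of the rule and not how it fares on real cells. Alternatives covered the mitochondrial limit, the depth limit, the class rule, the clustering, the summing, background subtraction, cells with other markers, the fold limit and the Glul limit.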

Additional observations from a re-analysis of the deposited data

Results flagged for a closer look

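Droplets above the mitochondrial limit of 25%, which entered only the alternative with a limit of 50%, held UMIs of the 9 members beyond what 0 counts would allow. In 5675 such droplets with suffix 1 the members together stood at 1234 CPM, or 4.02 UMIs per droplet, and in 8886 droplets with suffix 2 at 1413 CPM, or 4.2 UMIs per droplet. T-like cells, which should lack the enzymes, held 3.57 and 4.71 UMIs per cell. With mitochondrial UMIs left out of the total, the members stood at 2811 and 3255 CPM in these droplets and at 752 and 1110 CPM in T-like cells. Tdo2 was at 438 and 682 CPM in these droplets and Hal at 57.9 and 78.4 CPM.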

How the results depend on the processing

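Hal was the single member at least 2-fold apart between the libraries, and it passed that limit under every alternative run, with ratios from 2.16 to 2.50. The count of members apart was 2 (Hpd and Hal) with deep cells from 10000 UMIs and with a class per cell, and 5 with a fold limit of 1.5 and with the B-like CPM subtracted. Under subtraction, Kynu was counted without a ratio, since with suffix 1 its B-like level (175 CPM) was above its deep level (133 CPM). With a mitochondrial limit of 10%, members at least 1.5-fold higher with suffix 2 numbered 1 in place of 5. The ratio ran from 1.07 to 2.50 for Hpd and from 1.07 to 2.08 for Tdo2. The count of members low in Glul-rich deep cells rested on 4 and 1 cells. It was 1 as reported, 2 with mitochondrial limits of 50% (Hal and Uroc1) and 10% (Sds and Uroc1), 2 with Glul-rich cells from 10 UMIs of 5000 (Tat and Sds), 0 from 2 UMIs, 0 with cells holding other markers left out, 0 between the highest and lowest of 5 groups by zonation score, and 3 in cells thinned to 1000 UMIs. The cause was not tested. No alternative gave a member 2-fold higher in Glul-rich cells of both libraries. With a class per cell or deep cells from 10000 UMIs, a library had no Glul-rich cell and no value was had, and deep cells from 2000 UMIs gave the same cells after thinning to 5000. Over the 9 members, 48 of 80 library ratios moved by less than their interval and 32 moved by more. Pathway genes apart numbered 3 to 6 over the alternatives. No paired analysis was possible because each genotype had 1 sample and no test was run.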
